A study of Homo sapiens with 6 samples.

Results

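The genes of homologous recombination and of the Fanconi anaemia pathway were followed in SW480, a cell line established from a human colorectal adenocarcinoma, which was treated for 24 h with MPM-1 or with its solvent DMSO. They were taken as every gene of the deposited table whose symbol starts with FANC, which gave 10 genes, together with 36 recombination, checkpoint and nuclease genes given by name, all of which were in the table. The 46 genes were among 12982 genes in all, and each of them was tested. MPM-1 is a fluorescent probe that collects in mitochondria, and the sample labels call it WT4. Each treatment had 3 libraries, and both treatments used the same line, labelled with the genotype WT. The dose of MPM-1 in this experiment is not given in the sources used here. The sources do not say whether the libraries came from separate cultures, so the p-values measure only the spread between these libraries.

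Homologous recombination repairs a double-strand break by copying an intact sister chromatid. The broken end is first trimmed to single-stranded DNA, BRCA1, PALB2 and BRCA2 then prepare it for strand exchange, and the joined molecules are finally dissolved by the BLM helicase complex or cut by nucleases. The Fanconi pathway handles crosslinks between the DNA strands: a core complex attaches ubiquitin to FANCD2 and FANCI, and the crosslink is then excised and the break passed on to recombination. Many of these genes are transcribed mainly in dividing cells.

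Of the 46 genes, 32 fell after MPM-1, 4 rose and 10 did not pass the test. A gene was said to fall or rise at an adjusted p under 0.05 in the quasi-likelihood F test of edgeR, adjusted by Benjamini-Hochberg over all 12982 genes. The 32 lower genes were 69.6% of the set, while 28.8% of all genes tested were lower by the same rule. The 4 higher genes stood beside 27.7% of all genes. By a stricter rule, an adjusted p under 0.01 and a log2 change at or beyond 1 in either direction, 20 of the 46 genes (43.5%) were lower against 8.75% of all genes, and none was higher against 5.58%. The highest log2 fold change of the set was 0.82, and DESeq2's test gave no higher gene by that rule either. The median log2 fold change was -0.81 over the set and -0.026 over all genes. In 32 of the 46 genes all MPM-1 values lay below all DMSO values, and 33.3% of all genes did so. Among the genes that fell, the median fall was 2.23-fold, and among the 20 that met the stricter rule it was 2.73-fold. The plot of fold changes by role shows both the common fall and the 4 genes that went the other way.

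**Figure D1:**
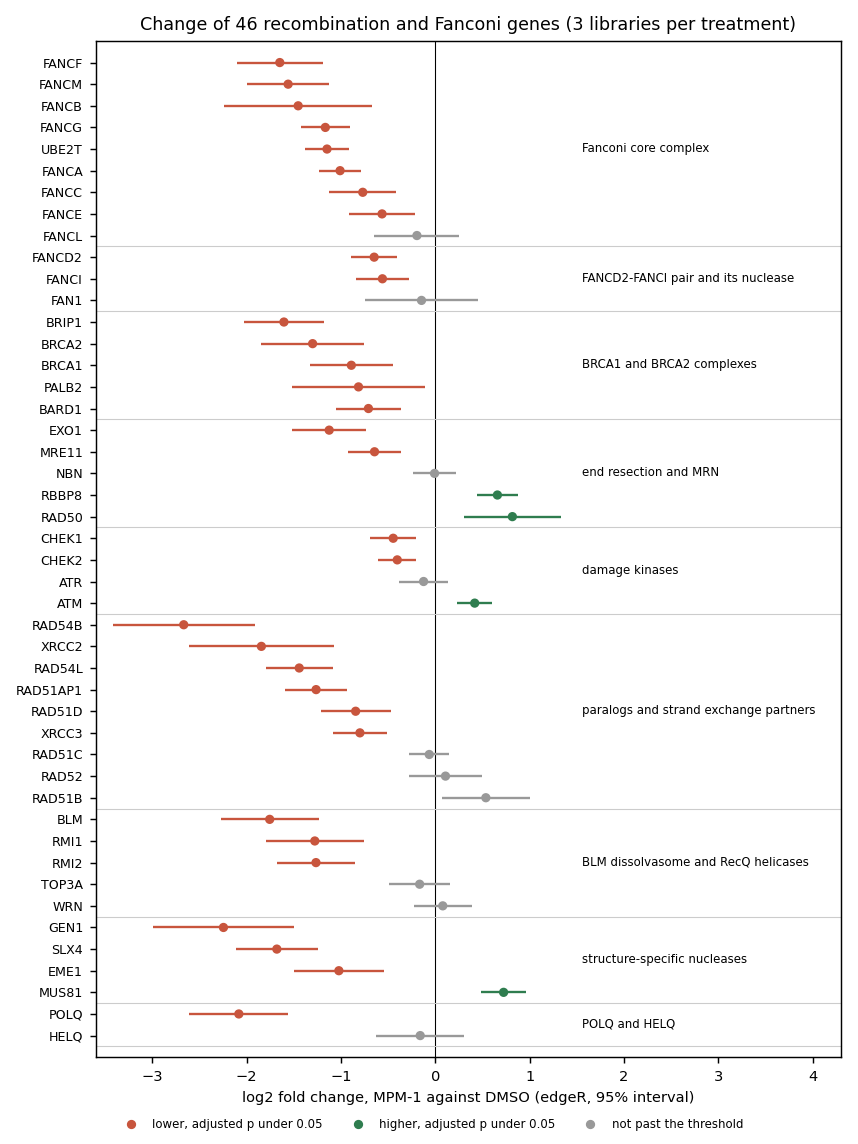
Log2 fold change of each of the 46 genes (points, edgeR, MPM-1 against DMSO, 3 libraries per treatment) with its 95% interval (lines), grouped by role. The 32 lower genes lie left of 0, the 4 higher genes RBBP8, RAD50, ATM and MUS81 lie between 0.42 and 0.82, and 10 genes did not pass the test.

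The promoters of 5 genes are shown to place the fold changes beside the DNA at their start sites. They are GEN1 and POLQ, with the lowest log2 fold changes among the genes that have a RefSeq window, the BLM helicase, FANCD2 as the substrate of the Fanconi core complex, and MUS81 as a gene that rose. Each stretch runs from 120 bases before to 30 bases after the start site on RefSeq's GRCh38.p14, 5′ to 3′ on the gene's own strand. The stretches are chr2:17753749-17753898 (plus strand) for GEN1, chr3:121545959-121546108 (minus strand) for POLQ, chr15:90717226-90717375 (plus strand) for BLM, chr3:10026317-10026466 (plus strand) for FANCD2 and chr11:65860313-65860462 (plus strand) for MUS81. Capitals mark every match, on either strand, to one of 4 forms of the E2F motif (TTTGGCGC, TTTCCCGC, TTTCGCGC or TTTGCCGC), to the cell cycle homology region (CHR, TTTGAA) or to the CCAAT box.
GEN1: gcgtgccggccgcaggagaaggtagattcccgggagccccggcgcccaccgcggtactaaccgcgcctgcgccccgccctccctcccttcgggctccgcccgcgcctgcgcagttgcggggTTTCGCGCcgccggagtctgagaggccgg
POLQ: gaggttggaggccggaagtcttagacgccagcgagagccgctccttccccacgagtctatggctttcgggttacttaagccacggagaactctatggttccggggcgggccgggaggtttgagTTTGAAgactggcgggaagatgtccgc
BLM: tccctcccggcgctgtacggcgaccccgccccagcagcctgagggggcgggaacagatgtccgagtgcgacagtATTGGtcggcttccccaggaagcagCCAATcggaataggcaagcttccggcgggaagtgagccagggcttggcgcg
FANCD2: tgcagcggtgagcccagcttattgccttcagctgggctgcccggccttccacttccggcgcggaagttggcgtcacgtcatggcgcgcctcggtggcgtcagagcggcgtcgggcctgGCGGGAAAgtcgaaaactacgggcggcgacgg
MUS81: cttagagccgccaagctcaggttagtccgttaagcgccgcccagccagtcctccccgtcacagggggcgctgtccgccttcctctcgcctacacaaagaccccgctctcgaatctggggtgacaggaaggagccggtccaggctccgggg

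E2F proteins bind genes of the G1/S transition, and the CHR and CCAAT elements are known from genes of G2 and mitosis. The GEN1 and FANCD2 stretches each hold 1 E2F form at the start site, POLQ holds 1 CHR form there, BLM holds 2 CCAAT boxes, and the MUS81 stretch holds no match. GEN1 has another RefSeq start, not shown. Its window (chr2:17753888-17754187) holds no E2F form and has a CCAAT box 56 bases before the start. RefSeq windows of 250 bases before to 50 bases after the start were at hand for 41 of the 46 genes, with 57 windows in all. A gene was counted where any of its windows held the form. An E2F form was in a window of 7 of these (17.1%), against 6.65% of the 9595 genes of the table that have a window and 3.99% of all 27305 genes with one. The 7 were EXO1, FANCA, FANCC, FANCD2, GEN1, RMI1 and XRCC2, all among the genes that fell. Of these, EXO1, FANCC, GEN1 and RMI1 also had a window without the form. None of the 12 genes with a window that did not fall held one. At a share of 6.65% in the table, 12 genes are too few to read this as a difference. A CCAAT box was in 19 genes (46.3%), against 43.1% of the genes of the table. It was in 16 of 29 genes that fell and in 3 of 12 that did not, which were ATM, HELQ and MUS81. The MUS81 box lies 238 bases before the start, outside the stretch shown. The CHR form was in 6 of 41 genes (14.6%), against 13.3% of the genes of the table. Of these 6, 4 were among the 29 genes that fell, and 2 were among the 12 that did not, ATM (which rose) and HELQ. These matches are a description of the letters in the windows, and no test was made on them.

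The libraries held 31733667 to 40269820 counts each. No gene of the set had a count of 0, and the smallest count in a library was 15, in XRCC2. The levels below are CPM, that is counts divided by a library total adjusted with edgeR's TMM factors, given for replicates 1, 2 and 3 in turn, and they compare libraries rather than genes. Among colorectal epithelial markers 10 of 11 were in the table, with a summed FPKM (the authors' fragment count scaled for transcript length and depth) of 4830 to 5553 in DMSO and 6737 to 7201 after MPM-1, CEACAM5 being the one not in the table, and 5 of them were lower and 4 higher. Of the mesenchymal markers 3 of 7 were in the table, summing to at most 1.67 FPKM, and of the endothelial markers none of 4. Of 6 leukocyte markers only CD14 and CD68 were in the table, summing to 36.9 to 50.4 FPKM in DMSO and 70.8 to 74.7 FPKM after MPM-1, and the defining marker PTPRC was not. CD14 fell (log2 fold change -1.34, SE 0.29, adjusted p = 0.00315) and CD68 rose (log2 fold change 1.08, SE 0.14, adjusted p = 0.000165).

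Of the 9 genes grouped here with the Fanconi core complex, among them its E2 enzyme UBE2T, 8 were lower, 6 of them by the stricter rule. The median log2 fold change was -1.15. Outside the set, the complex genes FAAP24 and FAAP20 were lower, with log2 fold changes of -1.85 and -0.40. FAAP100 did not pass the test (log2 fold change 0.016, adjusted p = 0.929). FANCF, the adaptor that joins the parts of the complex, lies at chr11:22622890-22625841 on GRCh38 (GENCODE release 29, as for the positions that follow) and had 11.8, 16.4 and 15.5 CPM in the DMSO libraries and 3.84, 4.39 and 5.72 CPM in the MPM-1 libraries. All MPM-1 values lay below all DMSO values, a 3.14-fold fall (log2 fold change -1.65, SE 0.20, adjusted p = 0.000127). FANCM, the DNA translocase that anchors the complex at damaged DNA (chr14:45135940-45200890), had 6.79, 7.53 and 7.76 CPM with DMSO and 2.36, 2.80 and 2.32 CPM after MPM-1. The groups again did not overlap, and FANCM fell 2.95-fold (log2 fold change -1.56, SE 0.19, adjusted p = 0.000125). FANCB, a scaffold of the catalytic module and the only gene of the set on the X chromosome (chrX:14835961-14873069), was a low gene with 2.94, 3.94 and 2.56 CPM with DMSO and 0.919, 0.813 and 1.70 CPM after MPM-1. Its fall of 2.74-fold had the widest error of the complex, with 1 MPM-1 library closer to the DMSO values than the other two (log2 fold change -1.45, SE 0.35, adjusted p = 0.00593).

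UBE2T, the E2 enzyme that hands ubiquitin to the complex (chr1:202331657-202341980), had 73.3, 74.3 and 76.6 CPM in the DMSO libraries and 31.3, 39.1 and 30.7 CPM in the MPM-1 libraries. It fell 2.22-fold, with a narrow spread in DMSO and MPM-1 replicate 2 above the other MPM-1 libraries (log2 fold change -1.15, SE 0.10, adjusted p = 1.79e-05). FANCG (chr9:35073835-35080016) and FANCA (chr16:89737549-89816657) sit together in the complex. FANCG had 26.8, 32.0 and 31.5 CPM with DMSO and 14.0, 14.1 and 12.2 CPM after MPM-1, a fall of 2.24-fold (log2 fold change -1.17, SE 0.12, adjusted p = 3.56e-05). FANCA had 28.0, 30.3 and 32.3 CPM with DMSO and 15.0, 15.1 and 14.9 CPM after MPM-1, a fall of 2.01-fold in which the MPM-1 libraries were almost level (log2 fold change -1.01, SE 0.10, adjusted p = 3.24e-05). The exons of FANCA overlap those of ZNF276 on the other strand over 23.6% of their length, and whether the counting used strand is not given in the sources used here. FANCC and FANCE, which bind each other and FANCD2, fell less, with log2 fold changes of -0.77 and -0.56. FANCL, the E3 ubiquitin ligase of the complex (chr2:58159243-58241372), had 9.49, 14.7 and 14.3 CPM with DMSO and 10.1, 13.4 and 10.1 CPM after MPM-1. Its libraries overlapped and it did not pass the test (log2 fold change -0.20, 95% interval -0.64 to 0.25, adjusted p = 0.430). FANCL shares 18.7% of its exonic bases with VRK2 on the other strand, so the same limit holds for it.

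The substrates of the core complex had smaller fold changes than most of its subunits. FANCD2 (chr3:10026414-10101930), whose promoter with its E2F form is shown above, had 22.8, 22.2 and 22.8 CPM with DMSO and 15.2, 13.2 and 14.8 CPM after MPM-1. It fell 1.57-fold with no overlap between treatments (log2 fold change -0.65, SE 0.11, adjusted p = 0.000816). FANCI, its partner (chr15:89243949-89317261), fell by a like amount, with a log2 fold change of -0.56 and 39.1, 52.1 and 52.5 CPM in the DMSO libraries and 31.5, 35.5 and 30.4 CPM in the MPM-1 libraries. FAN1, a nuclease recruited by ubiquitinated FANCD2 (chr15:30903852-30943108), had 7.94, 10.6 and 8.44 CPM with DMSO and 11.9, 5.82 and 6.64 CPM after MPM-1. Its highest value of all 6 libraries and its lowest were both MPM-1 libraries, and it did not pass the test (log2 fold change -0.15, 95% interval -0.75 to 0.45, adjusted p = 0.664). FAN1 shares 24.3% of its exonic bases with MTMR10 on the other strand, and the use of strand in the counting is not given.

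All 5 genes of the BRCA1 and BRCA2 complexes fell, with a median log2 fold change of -0.89, and 2 of them met the stricter rule. BRIP1, the helicase that binds BRCA1 and is also known as FANCJ (chr17:61681266-61863521), had 8.61, 12.2 and 10.8 CPM in the DMSO libraries and 3.48, 3.28 and 3.60 CPM in the MPM-1 libraries. The MPM-1 libraries were tightly grouped, and BRIP1 fell 3.04-fold (log2 fold change -1.60, SE 0.19, adjusted p = 9.19e-05). BRCA2, which acts on the trimmed single-stranded DNA (chr13:32315474-32400266), had 7.85, 12.7 and 13.8 CPM with DMSO and 5.61, 4.49 and 3.87 CPM after MPM-1. DMSO replicate 1 was well below the other DMSO libraries but still above all MPM-1 libraries, and the fall was 2.46-fold (log2 fold change -1.30, SE 0.24, adjusted p = 0.00146). BRCA1 (chr17:43044295-43170245) and BARD1 (chr2:214725646-214809711) form a heterodimeric ubiquitin ligase. BRCA1 had 11.6, 16.2 and 15.3 CPM with DMSO and 6.24, 9.43 and 7.59 CPM after MPM-1 (log2 fold change -0.89, SE 0.20, adjusted p = 0.00368). BARD1 had 10.7, 12.6 and 10.9 CPM with DMSO and 7.12, 7.41 and 6.34 CPM after MPM-1 (log2 fold change -0.71, SE 0.15, adjusted p = 0.00351), the smallest fall of the group. PALB2, which bridges BRCA1 and BRCA2, had 6.25, 8.50 and 9.34 CPM with DMSO and 2.43, 6.15 and 5.12 CPM after MPM-1. It was at the threshold (log2 fold change -0.81, SE 0.31, adjusted p = 0.0497), and it lost the call without any one of 4 libraries, DMSO replicate 2 or 3 or MPM-1 replicate 1 or 3, with adjusted p of 0.121, 0.143, 0.088 and 0.0782.

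End resection split within one protein complex. The MRE11, RAD50 and NBN proteins form the MRN complex that senses and trims the break, RBBP8 (CtIP) switches on its nuclease, and EXO1 extends the trimming. EXO1 (chr1:241847967-241895148) had 8.40, 9.68 and 10.7 CPM in the DMSO libraries and 4.46, 4.00 and 4.74 CPM in the MPM-1 libraries, a 2.18-fold fall without overlap (log2 fold change -1.13, SE 0.18, adjusted p = 0.000512). MRE11, the nuclease subunit (chr11:94415578-94493908), had 21.0, 22.9 and 25.0 CPM with DMSO and 14.8, 16.1 and 13.2 CPM after MPM-1 and fell 1.56-fold (log2 fold change -0.64, SE 0.12, adjusted p = 0.00168). NBN, the adaptor subunit, had 25.8, 32.0 and 29.6 CPM with DMSO and 28.2, 29.6 and 29.1 CPM after MPM-1. Its MPM-1 libraries lay within the DMSO range and it did not pass the test (log2 fold change -0.01, 95% interval -0.23 to 0.22, adjusted p = 0.952). RBBP8 (chr18:22798261-23026488) went the other way, with 30.7, 32.5 and 33.1 CPM with DMSO and 56.9, 48.3 and 46.8 CPM after MPM-1. All MPM-1 libraries were higher, a 1.58-fold rise (log2 fold change 0.66, SE 0.10, adjusted p = 0.000343).

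RAD50, the ATPase that holds the DNA ends (chr5:132556019-132646344), had 26.3, 52.6 and 56.1 CPM in the DMSO libraries and 81.8, 82.8 and 73.5 CPM in the MPM-1 libraries. It rose 1.76-fold with no overlap (log2 fold change 0.82, SE 0.23, adjusted p = 0.0125), and DMSO replicate 1 had the lowest value of all. RAD50 shares 79.7% of its exonic bases on the same strand with AC116366.3, a second annotated gene of the table, so the assignment of reads between them is uncertain. AC116366.3 had 454 counts in DMSO replicate 1 and 17 to 69 counts in the other 5 libraries. With the counts of both genes added, an alternative chosen after seeing the data, the level was 40.0, 53.0 and 56.5 CPM in DMSO and 82.8, 84.0 and 75.6 CPM after MPM-1. The sum rose 1.62-fold (log2 fold change 0.70, SE 0.12, adjusted p = 0.00101). How reads that fit both genes were counted is not given, so the sum cannot settle their assignment.

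Each of the 4 damage kinases stayed within a log2 fold change of 0.45 in size. CHEK1, the effector kinase below ATR (chr11:125625136-125676255), had 38.1, 42.1 and 39.1 CPM in the DMSO libraries and 32.9, 25.2 and 29.5 CPM in the MPM-1 libraries. It fell 1.36-fold without overlap (log2 fold change -0.45, SE 0.11, adjusted p = 0.00636), and CHEK2, the effector below ATM, fell by a like amount, with a log2 fold change of -0.40. ATR did not pass the test, with a log2 fold change of -0.12. ATM, the kinase activated by MRN at double-strand breaks (chr11:108222484-108369102), had 34.1, 35.3 and 36.3 CPM with DMSO and 49.5, 47.8 and 43.9 CPM after MPM-1. All MPM-1 libraries were above the DMSO libraries, a 1.34-fold rise (log2 fold change 0.42, SE 0.08, adjusted p = 0.00199). The call for ATM was not kept with limma on log2(FPKM + 1) (log2 fold change 0.19, adjusted p = 0.136). That setting changes the unit, the scaling and the test together.

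Among the paralogs RAD51B, RAD51C, RAD51D, XRCC2 and XRCC3 and the other genes of strand exchange, 6 of 9 genes fell, 4 of them by the stricter rule, and the other 3 did not pass the test. RAD54B, a DNA translocase of the SWI2/SNF2 family, had the lowest log2 fold change of the 46 genes when counted on its own. It had 16.6, 20.7 and 25.4 CPM in the DMSO libraries and 5.35, 1.98 and 2.53 CPM in the MPM-1 libraries. There was no overlap, and the fall was 6.35-fold (log2 fold change -2.67, SE 0.34, adjusted p = 0.000143). RAD54B shares 59.1% of its exonic bases on the same strand with FSBP, which had 61, 334 and 117 counts in DMSO and 12, 136 and 167 counts after MPM-1. With both genes added, again after seeing the data, the level was 18.4, 28.4 and 28.3 CPM in DMSO and 5.74, 6.41 and 7.51 CPM after MPM-1. The fall of the sum was 3.82-fold (log2 fold change -1.93, SE 0.19, adjusted p = 3.45e-05), which lies above the log2 fold changes of GEN1 (-2.25) and POLQ (-2.08). The size of the RAD54B fall and its first place are thus uncertain, while its direction was kept.

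XRCC2, one of the paralogs (chr7:152644779-152676165), was the gene of the set with the lowest level per length and had 2.46, 2.71 and 1.81 CPM with DMSO and 0.853, 0.488 and 0.596 CPM after MPM-1. It fell 3.59-fold with no overlap (log2 fold change -1.84, SE 0.34, adjusted p = 0.00137). RAD54L, the other RAD54 translocase (chr1:46247688-46278473), had 11.7, 14.4 and 12.3 CPM with DMSO and 4.76, 4.52 and 4.85 CPM after MPM-1, a fall of 2.72-fold (log2 fold change -1.44, SE 0.16, adjusted p = 6.35e-05). RAD51AP1, which stimulates strand pairing (chr12:4538798-4560048), had 22.3, 28.1 and 29.4 CPM with DMSO and 9.68, 11.0 and 12.5 CPM after MPM-1, a fall of 2.40-fold (log2 fold change -1.26, SE 0.15, adjusted p = 8.97e-05). RAD51D and XRCC3, paralogs of 2 different complexes, fell with log2 fold changes of -0.84 and -0.80. XRCC3 shares 76.7% of its exonic bases with KLC1 on the other strand, and RAD54L shares 25.1% with LRRC41 in the same way.

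RAD51C, the paralog found in both paralog complexes, had 24.7, 26.8 and 26.6 CPM in the DMSO libraries and 26.5, 24.8 and 23.5 CPM in the MPM-1 libraries, and the libraries overlapped (log2 fold change -0.06, 95% interval -0.28 to 0.15, adjusted p = 0.588). RAD52, which anneals single strands, had a log2 fold change of 0.11 and did not pass the test either. RAD51B (chr14:67819779-68730218), spread over a long gene, had 3.21, 3.87 and 3.19 CPM with DMSO and 5.12, 5.53 and 4.26 CPM after MPM-1. All its MPM-1 libraries lay above the DMSO libraries, yet it missed the threshold (log2 fold change 0.54, 95% interval 0.07 to 1.00, adjusted p = 0.0515), and it passed with DESeq2's test (adjusted p = 0.0473).

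**Figure D2:**
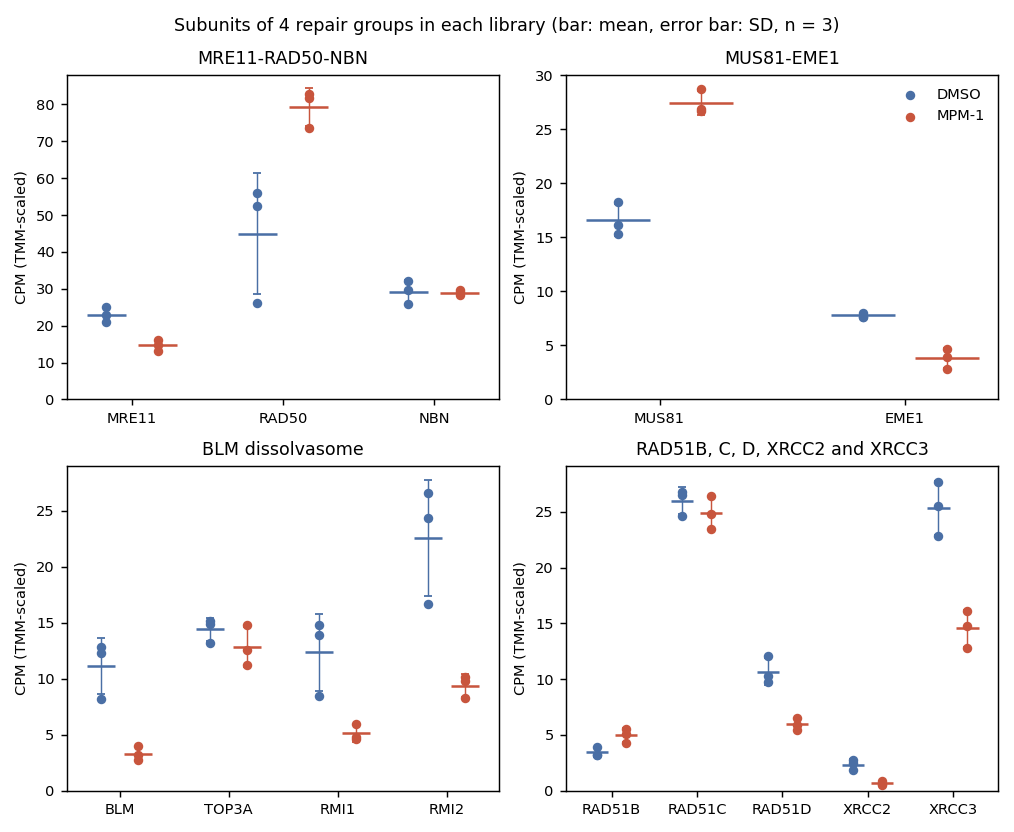
CPM in each library (points) with mean (bar) and SD (error bar, n = 3) for subunits of 4 repair groups, DMSO in blue and MPM-1 in red, axes from 0. RAD50 and MUS81 were higher after MPM-1 while their partners MRE11 and EME1 were lower, and the TOP3A and RAD51C points overlapped between treatments while BLM, RMI1, RMI2, XRCC2 and XRCC3 did not.

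The BLM dissolvasome, which takes apart double Holliday junctions without crossing over, fell in 3 of its 4 subunits. BLM, its helicase (chr15:90717327-90816165), whose promoter with 2 CCAAT boxes is shown above, had 8.22, 12.9 and 12.3 CPM in the DMSO libraries and 3.18, 3.97 and 2.74 CPM in the MPM-1 libraries. It fell 3.38-fold without overlap (log2 fold change -1.76, SE 0.23, adjusted p = 0.000183). RMI1 (chr9:83980711-84004074), an accessory subunit, had 8.43, 13.9 and 14.8 CPM with DMSO and 4.60, 5.95 and 4.77 CPM after MPM-1, a fall of 2.42-fold (log2 fold change -1.28, SE 0.23, adjusted p = 0.00124). RMI2 (chr16:11249619-11381662), the other accessory subunit, had 16.7, 24.4 and 26.6 CPM with DMSO and 8.24, 9.79 and 10.1 CPM after MPM-1, a fall of 2.40-fold (log2 fold change -1.27, SE 0.18, adjusted p = 0.000335). In all 3 genes DMSO replicate 1 was the lowest DMSO library. TOP3A, the topoisomerase of the complex, had 14.9, 15.1 and 13.2 CPM with DMSO and 11.2, 14.8 and 12.5 CPM after MPM-1, with overlap and no call (log2 fold change -0.17, 95% interval -0.49 to 0.16, adjusted p = 0.354), although it was lower with limma on each FPKM scale (adjusted p = 0.0127 to 0.0158). WRN, a related RecQ helicase outside the complex, had 12.0, 14.0 and 11.6 CPM with DMSO and 14.2, 12.8 and 12.7 CPM after MPM-1, which also overlapped (log2 fold change 0.08, 95% interval -0.23 to 0.39, adjusted p = 0.648).

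Among the structure-specific nucleases 3 fell by the stricter rule and 1 rose. GEN1, a resolvase that cuts Holliday junctions (chr2:17753858-17788941), had 10.4, 13.1 and 11.8 CPM in the DMSO libraries and 1.71, 4.10 and 1.64 CPM in the MPM-1 libraries. MPM-1 replicate 2 was well above the other MPM-1 libraries but below all DMSO libraries, and the fall was 4.74-fold (log2 fold change -2.25, SE 0.33, adjusted p = 0.000378). SLX4, the scaffold on which nucleases assemble, also known as FANCP (chr16:3581181-3611598), had 7.88, 9.70 and 8.79 CPM with DMSO and 2.92, 2.96 and 2.35 CPM after MPM-1, a fall of 3.20-fold (log2 fold change -1.68, SE 0.19, adjusted p = 8.08e-05). EME1, a partner of MUS81 (chr17:50373220-50381483), had 8.0, 7.66 and 7.66 CPM with DMSO and 4.69, 3.93 and 2.86 CPM after MPM-1, a fall of 2.03-fold (log2 fold change -1.02, SE 0.21, adjusted p = 0.00271). MUS81, the catalytic subunit (chr11:65857126-65867653), had 16.2, 15.4 and 18.3 CPM with DMSO and 28.8, 26.9 and 26.7 CPM after MPM-1. All MPM-1 libraries were higher, and MUS81 rose 1.65-fold (log2 fold change 0.72, SE 0.11, adjusted p = 0.000357). MUS81 shares 13.9% of its exonic bases with CFL1 on the other strand, and EME1 shares 16.4% with LRRC59 in the same way. As the use of strand in the counting is not given, reads of these neighbours may be among their counts.

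POLQ, the polymerase of microhomology-mediated end joining (chr3:121431427-121546641), had 16.0, 17.8 and 15.4 CPM in the DMSO libraries and 3.12, 5.46 and 3.04 CPM in the MPM-1 libraries. It fell 4.24-fold without overlap (log2 fold change -2.08, SE 0.23, adjusted p = 7.22e-05). HELQ, a helicase related to the helicase part of POLQ (chr4:83407343-83455856), had 8.85, 9.61 and 8.96 CPM with DMSO and 6.17, 10.7 and 7.71 CPM after MPM-1. MPM-1 replicate 2 was the highest of all 6 libraries and MPM-1 replicate 1 the lowest, and HELQ did not pass the test (log2 fold change -0.16, 95% interval -0.62 to 0.30, adjusted p = 0.533).

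**Figure D3:**
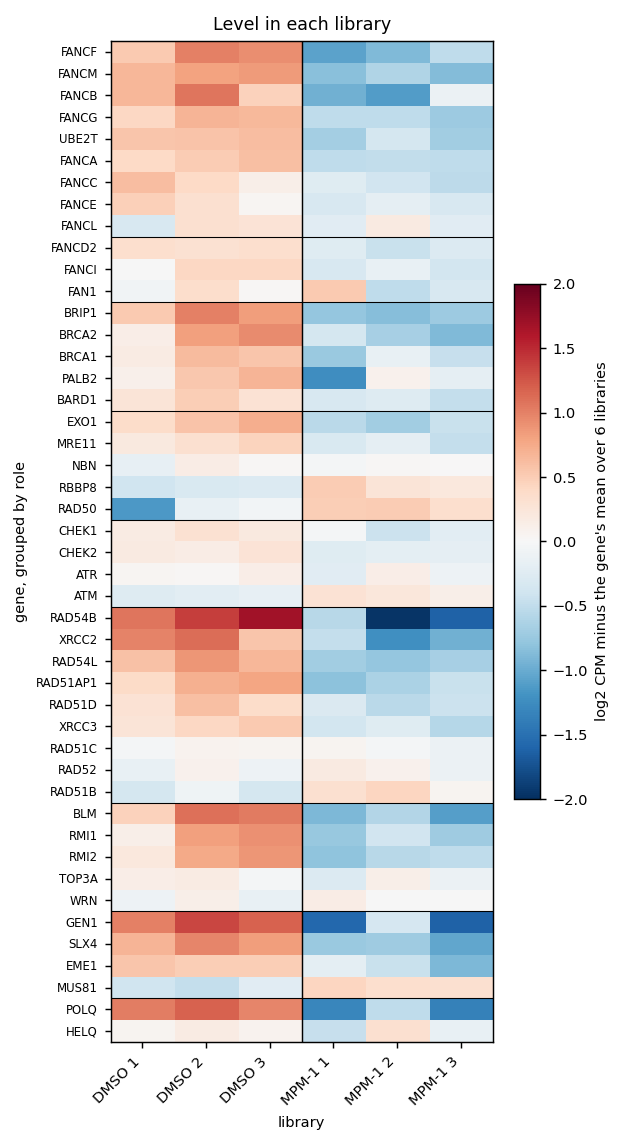
Log2 CPM of each of the 46 genes (rows, grouped by role) in each of the 6 libraries (columns), minus the gene's mean over the libraries, in red where higher and blue where lower. Most rows are red in the DMSO columns and blue in the MPM-1 columns. RBBP8, RAD50, ATM and MUS81 are reversed, and so is RAD51B, which did not pass the test. DMSO 1 is the lowest DMSO library in 33 of the 46 genes.

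DMSO replicate 1 was the lowest of the DMSO libraries in 33 of the 46 genes, against 4 and 9 for replicates 2 and 3. The share over all genes was not counted. Over all genes, replicate 1 differed from replicates 2 and 3 by a chi-square of 24.8 and 24.5 per gene, against 15.4 between replicates 2 and 3. S phase markers outside the set summed to 664, 802 and 811 FPKM in DMSO, while G2/M markers summed to 3610, 3481 and 3453 FPKM. The summed level of the set was 796, 934 and 931 CPM in DMSO and 663, 676 and 621 CPM after MPM-1. The mean fell from 887 ± 78.4 to 653 ± 28.9 CPM (SD, n = 3), or to 73.7% of DMSO, with no overlap. Without DMSO replicate 1, the counts of lower and higher genes were again 32 and 4, and the median log2 fold change was -0.89. The lower level of this library was not tested for a cause.

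Levels between genes were compared per transcript length, by the authors' FPKM. The set summed to 306, 349 and 356 FPKM in DMSO and to 197, 213 and 190 FPKM after MPM-1, or 59.4% of DMSO. UBE2T was the highest in both treatments, at 88.0 ± 3.25 FPKM in DMSO and 35.5 ± 5.95 FPKM after MPM-1 (SD, n = 3), and took 26.2% of the summed FPKM in DMSO and 17.7% after MPM-1. XRCC2 was the lowest in both, at 0.767 ± 0.157 FPKM in DMSO and 0.188 ± 0.0551 FPKM after MPM-1. Mean levels under 1 FPKM were found for 1 gene, XRCC2, in DMSO and for 10 genes after MPM-1. RBBP8 moved from place 8 to place 2 by level, with 11.0 ± 0.125 FPKM in DMSO and 16.4 ± 0.614 FPKM after MPM-1. MUS81 moved from place 13 to place 5, RAD50 from 16 to 7, and RAD54B from 14 down to 34. Across the 46 genes, the log2 fold change and the log2 mean FPKM in DMSO had a Pearson correlation of 0.25 and a Spearman correlation of 0.34. This is a description across genes, which are not independent replicates and which share the DMSO libraries in both measures.

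**Figure D4:**
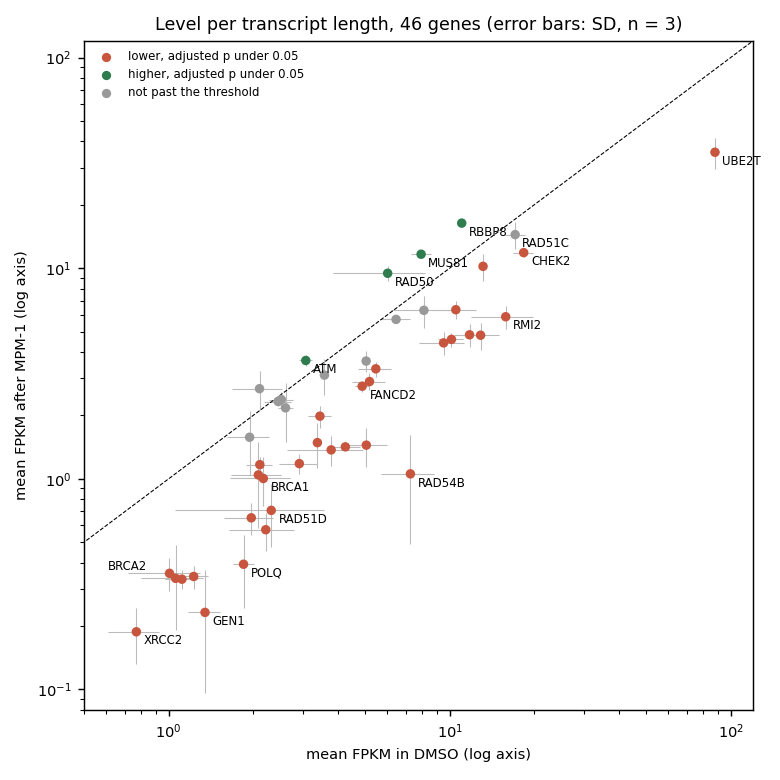
Mean FPKM of each of the 46 genes in DMSO (x axis) and after MPM-1 (y axis), both on log axes, with SD as error bars (n = 3) and a dashed line of equal level. Genes that fell lie below the line. So do genes that did not pass the test, such as WRN (2.45 and 2.33 FPKM) and RAD52 (2.52 and 2.38 FPKM), while RAD51B lies above it. UBE2T is the highest at 88.0 and 35.5 FPKM, and XRCC2 is the lowest at 0.767 and 0.188 FPKM.

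The ratio of partner subunits within a library was computed from FPKM for pairs chosen after their values were seen, and these ratios are given without a test. The RAD50 to MRE11 ratio was 1.71 ± 0.503 in DMSO and 4.79 ± 0.234 after MPM-1 (SD, n = 3). The MUS81 to EME1 ratio was 2.22, 2.23 and 2.57 in DMSO and 6.57, 7.56 and 10.3 after MPM-1. The TOP3A to BLM ratio was 2.40 ± 0.705 and 6.45 ± 1.20, and that of RAD51C to XRCC3 was 1.85 ± 0.423 and 3.28 ± 0.443. In these 4 pairs the treatments did not overlap. By contrast, the ratios of FANCI to FANCD2, at 2.17 ± 0.488 and 2.30 ± 0.0863, and of BARD1 to BRCA1, at 0.996 ± 0.161 and 1.21 ± 0.294, overlapped between treatments.

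Accessory genes of the same pathways, a list of 56 genes of which 54 were tested, held 31 lower and 10 higher genes, with a median log2 fold change of -0.35. The lower genes were 57.4% of the list against 28.8% of all genes, and the 10 higher genes stood beside 27.7% of all genes. By the stricter rule 6 were lower, or 11.1% against 8.75% of all genes, a share near the background. The lowest was DCLRE1B, the Apollo nuclease, with 7.55, 7.90 and 9.06 CPM in the DMSO libraries and 2.23, 1.89 and 2.03 CPM in the MPM-1 libraries (log2 fold change -1.99, SE 0.19, adjusted p = 3.01e-05). The highest was BABAM2, a subunit of the BRCA1-A complex, with 12.5, 18.7 and 18.9 CPM with DMSO and 34.8, 30.7 and 28.1 CPM after MPM-1 (log2 fold change 0.90, SE 0.16, adjusted p = 0.0012). Both FAAP24, which binds FANCM, and DCLRE1A, the SNM1A nuclease of crosslink repair, were lower, with log2 fold changes of -1.85 and -1.74. EME2, the alternative partner of MUS81, was higher, with a log2 fold change of 0.86 (adjusted p = 0.00512). These 3 were chosen after their values were seen.

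In the other repair routes, 14.3% to 41.7% of the genes were lower. Of 17 genes of non-homologous end joining, 5 were lower and 2 higher, with a median log2 fold change of -0.31, from SHLD3 at -1.04 to APLF at 0.66, the latter not past the threshold. Of 7 mismatch repair genes, 1 was lower and 3 were higher, with a median of 0.27, from PMS2 at -0.52, not past the threshold, to MSH3 at 0.68. Of 19 genes of nucleotide excision repair, 6 were lower and 4 higher, with a median of -0.25, from DDB2 at -0.66 to ERCC8 at 0.55. Of 24 genes of base excision and single-strand break repair, 10 were lower and 3 higher, with a median of -0.20, from NEIL3 at -1.85 to PARP3 at 0.72. Differences between the lists were not tested.

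**Figure D5:**
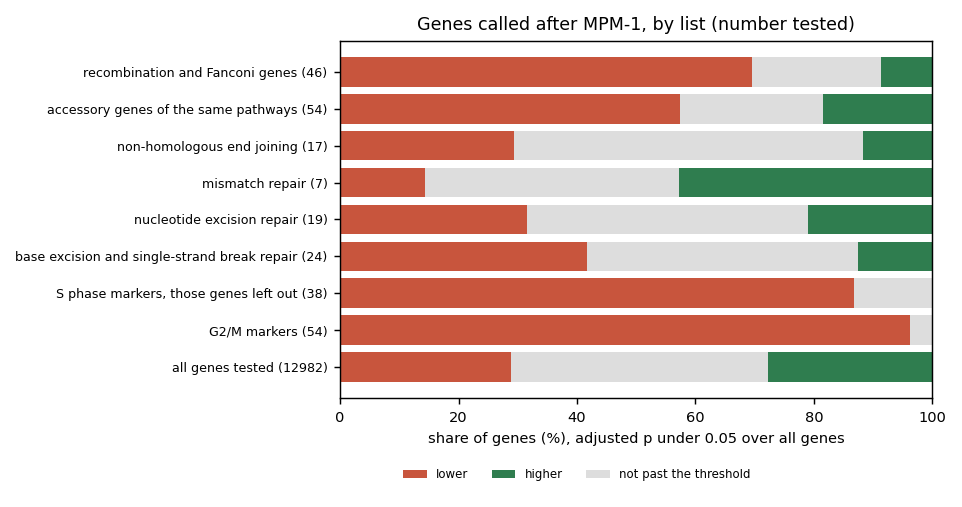
Share of the tested genes (%) of each list that were lower (red), higher (green) or not past the threshold (grey) after MPM-1, at an adjusted p under 0.05 over all genes (edgeR), with the number tested in brackets. The recombination and Fanconi genes, at 69.6% lower, lie between the cell cycle markers, at 86.8% and 96.3%, and the other repair routes, at 14.3% to 41.7%, and all genes were at 28.8%.

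Markers of the cell cycle moved with the set. Of 38 S phase markers outside the set, 33 were lower and none was higher, with a median log2 fold change of -0.87 and a range from UHRF1 at -2.09 to CDC6 at -0.048. Their summed level was 664 to 811 FPKM in DMSO and 403 to 430 FPKM after MPM-1. Of 54 G2/M markers, 52 were lower and none was higher, with a median of -1.33, from CENPF at -2.40 to CTCF at -0.082. They summed to 3453 to 3610 FPKM in DMSO and to 1508 to 1641 FPKM after MPM-1. The set itself holds 4 S phase markers, RAD51AP1, EXO1, BLM and BRIP1, and each fell by the stricter rule. The part of the cell cycle markers in the change of the repair genes was not tested, and in bulk RNA fewer cells in a phase and less RNA per cell cannot be told apart.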

How the data were processed

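RNA sequencing of SW480 cells was analysed in 3 DMSO and 3 MPM-1 libraries, assigned from the sample labels. The authors deposited 1 table of 12982 genes with the whole-number counts and the FPKM of each library. For the deposited FPKM, the authors divided fragments by transcript length and by library size. The table also holds the authors' log2 fold change of each gene. It further holds the authors' FDR, which is an adjusted p-value, and neither deposited column was used. The submitters' processing notes name HISAT2, DESeq2 and mm10, a mouse build, although 12127 genes of the table carry human Ensembl identifiers and the other 855 a NewGene identifier. Tool versions, the annotation, the counting and its use of strand are not given in the sources used here. Libraries were made with an mRNA kit from total RNA. Every gene had at least 115 counts in total, so lower genes were not analysed here.

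Counts were tested with edgeR 4.0.16 in R 4.3.3 (quasi-likelihood F test, TMM scaling, no covariates, p-values adjusted by Benjamini-Hochberg over all genes), and filterByExpr removed none. The SE is the size of the log2 fold change divided by the square root of F. TMM factors were 1.03 to 1.07 in DMSO and 0.930 to 0.969 after MPM-1. The test was tried on simulated data of 12982 genes, in which 50 genes were changed at each log2 size of 0.5, 1, 1.5 and 2. Of these, 45 of 50 set to 1 and 18 of 50 set to 0.5 were recovered at an adjusted p under 0.05, none with the wrong sign. Of 170 calls, 13 (7.65%) were false. Far more genes were called in the real data (3740 lower and 3596 higher), and the simulation did not try such a share. Libraries of a treatment differed beyond sampling noise (chi-square of 15.4 to 33.2 per gene). Alternatives were a mean of at least 50 counts, no filter, DESeq2 1.42.0 (its size factors and its test), library size alone, limma 3.58.1 on log2(FPKM + 1) and log2(FPKM + 0.1) with and without a minimum mean of 1 FPKM, the replicate number as a block, and each library left out in turn. A pseudocount of 1 on log2(FPKM) understates the fold change of low genes.

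The genes of the set and all lists were chosen with earlier results of these data known. Named with values were, in each role, every gene by the stricter rule, every gene that rose, and the lowest and highest log2 fold change, and of other lists the lowest and the highest; other genes named with values were added for their place in the pathway. A gene of the lists is not reported here. Positions and exonic overlaps come from GENCODE release 29 on GRCh38, which held all 46 genes, and promoters from RefSeq on GRCh38.p14 for 41 of them. Exons of 27 of the 46 genes overlap another annotated gene, 7 of them on the same strand.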

Additional observations from a re-analysis of the deposited data

How the results depend on the processing

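The counts of 32 lower and 4 higher genes were 27 to 33 and 3 to 5 over all settings tried, and the 20 lower genes by the stricter rule were 16 to 22 except with limma on log2(FPKM + 1), which gave 9 and, by its minimum of 1 FPKM, tested 40 of the 46 genes. The median log2 fold change of -0.81 was -0.96 with library size alone, -0.62 with limma on log2(FPKM + 1), -1.03 with log2(FPKM + 0.1) and no filter, and -0.89 to -0.76 with each library left out. Library size alone moved the median of all genes to -0.18, with 4871 of them lower and 2589 higher against 3740 and 3596, and the FPKM scales moved it to -0.17 to -0.13. No gene was higher by the stricter rule with any library left out except DMSO replicate 3, so that this count ranged from 0 to 1; the gene was RAD50.

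Genes near 0 changed sign without passing the test. NBN was at 0.012 with DESeq2's size factors, 0.011 with its test and -0.088 to 0.065 with each library left out. WRN was at -0.074 with library size alone, -0.051 with log2(FPKM + 1) and -0.068 with log2(FPKM + 0.1), and RAD52 at -0.045, -0.057 and -0.077. With each library left out, HELQ ranged from -0.37 to 0.020 and FAN1 from -0.51 to 0.070. Of 680 values of single genes under other settings, 648 kept their direction and side of the threshold, 8 lost the call, 6 gained it and 18 changed sign. Lost were ATM on each FPKM scale and PALB2, also with DESeq2's size factors (adjusted p = 0.0513). Gained were TOP3A on each FPKM scale (log2 fold change -0.47 to -0.39, lower) and RAD51B with DESeq2's size factors, with its test and without MPM-1 replicate 3. The cause of these changes was not tested.

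With the replicate block, 32 genes were lower, 4 higher and 19 lower by the stricter rule, with a median of -0.82, and no call of a single gene changed at an adjusted p of 0.05. Same-numbered libraries had correlations of 0.021, 0.11 and -0.074 in their deviations, within the range of differently numbered libraries (-0.13 to 0.115). No pairing by number was seen, but with 3 libraries per treatment this check cannot exclude one. Adding the counts of the overlapping genes to RAD50 and RAD54B left the 4 counts at 32, 4, 20 and 0.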

Other observations

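RAD51D had the largest gap of the set between its 2 measures: the log2 ratio of MPM-1 to DMSO was -1.71 by mean FPKM and -0.84 by mean CPM. Its FPKM were 2.02, 3.70 and 1.23 in DMSO and 0.595, 0.554 and 0.975 after MPM-1. The next gaps were those of TOP3A, at -0.48 by FPKM and -0.17 by CPM, and XRCC3, at -1.11 and -0.80. RAD51D has 23 annotated transcripts in GENCODE release 29, and how the authors set its length for FPKM is not given in the sources used here.

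Between paralogs of strand exchange, the FPKM ratio of RAD51C to XRCC2 was 22.3, 17.1 and 30.2 in DMSO and 66.7, 100 and 72.5 after MPM-1. The ratio of ATM to CHEK2 was 0.169 ± 0.0196 in DMSO and 0.309 ± 0.0343 after MPM-1 (SD, n = 3), and that of ATR to CHEK1 was 0.273 ± 0.0125 and 0.315 ± 0.110, with overlap between treatments. The pairs were chosen after their values were seen, and no test was made on them.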
